A study of Mus musculus with 8 samples.

Results

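The Dlk1-Dio3 imprinted cluster of mouse chromosome 12 was examined in E9.5 embryos, in the tissue called the posterior second heart field (pSHF), with Tbx5-/+ set against wild-type. Its members were every non-control probe whose gene name in the scanner files was Dlk1, Meg3 (Gtl2), Rtl1, Rian, Mirg or Dio3. This gave 5 of the 6 genes, among 27827 gene names on the array, with 9 of its 41174 probes: 2 for Dlk1, 3 for Meg3, 2 for Rian, 1 for Mirg and 1 for Dio3. Rtl1 had 0 probes under that name. The genes were picked with the difference between Tbx5-/+ and wild-type already known, so their values in that contrast are given as a description. Counts from the test over all probes are printed only beside the share of all probes, and are not read as evidence.

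The study asked which pSHF transcripts depend on Tbx5, a T-box transcription factor required for atrial septation. The pSHF is the mesenchyme behind the heart tube that supplies cells to the atrial septum. Total RNA from E9.5 embryos was hybridized, as Cy3-labelled cRNA, to 8 one-colour Agilent arrays of 60-base probes, 4 for embryos labelled Tbx5-/+ and 4 for embryos labelled Tbx5 WT. The Tbx5-/+ embryos are heterozygotes and the Tbx5 WT embryos wild-type, both from a colony kept on a mixed background. Mothers of both groups had received human chorionic gonadotropin together with pregnant mare serum gonadotropin before mating. Each array held an independent pool of RNA, whose number of embryos is not given in the sources used here. The dissection took the neural tube away and, as the study describes it, left out the heart but kept foregut attached. Embryo numbers 1, 5, 6 and 7 occur in both groups, with 1 and 5 on slide 1 and 6 and 7 on slide 2. An array is named below by its genotype and embryo number (Tbx5-/+ 1, wild-type 1).

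Genes of the cluster are expressed from the copy of 1 parent. Dlk1 (a transmembrane protein related to Notch ligands), Rtl1 (a retrotransposon-derived protein needed in placental capillaries) and Dio3 (the deiodinase that inactivates thyroid hormone) are expressed mainly from the paternal copy. Meg3, Rian and Mirg are long noncoding RNAs made from the maternal copy in the same direction, and are often regarded as parts of a single long transcription unit that carries box C/D snoRNAs and a large set of microRNAs. Methylation of an intergenic control region sets which parental copy is active.

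The probe sequences are shown because probes of the same noncoding RNA gave different values, so it matters which stretch of the transcript each one reads. They are the 3 probes of Meg3, the Mirg probe, and the probe of Rian and of Dlk1 that had the larger difference of its gene. All positions of probes are on mm9, from the scanner files.
Dlk1 A_52_P177324 (chr12:110698428-110698487): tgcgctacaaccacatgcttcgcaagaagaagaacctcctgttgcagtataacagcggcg
Meg3 A_52_P391505 (chr12:110787974-110796459): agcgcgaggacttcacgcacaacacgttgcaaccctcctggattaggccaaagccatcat
Meg3 A_52_P99341 (chr12:110797172-110797231): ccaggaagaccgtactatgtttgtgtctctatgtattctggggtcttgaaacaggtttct
Meg3 A_52_P196568 (chr12:110799558-110799617): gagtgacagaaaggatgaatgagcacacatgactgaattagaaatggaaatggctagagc
Rian A_52_P102630 (chr12:110890293-110890352): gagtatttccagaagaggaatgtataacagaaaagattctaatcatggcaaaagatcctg
Mirg A_52_P277415 (chr12:110979536-110979595): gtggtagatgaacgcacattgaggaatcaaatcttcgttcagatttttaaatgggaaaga
Meg3 A_52_P391505 covers 8.486 kb of the genome with 60 bases, so it joins exons across an intron. The other 5 match 1 unbroken stretch each.

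MicroRNAs were not measured on these arrays, but Mirg and its neighbours are read here because they carry them. In RefSeq (GRCm38.p6), 60 microRNA hairpins with 111 mature names lie between the start of Meg3 and the end of Mirg. Of these hairpins, 57 are on the strand of Meg3, Rian and Mirg. The Mirg gene itself spans 10 hairpins, Rian 3 and Meg3 2, while 30 lie between Rian and Mirg. Among the 111 mature names there are 102 seeds (bases 2 to 8), and 9 seeds are shared by 2 of them each. The sequences below group arms by shared seed, then give other arms within the Mirg gene. Capitals mark the seed.
mmu-miR-453: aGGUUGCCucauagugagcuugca
mmu-miR-496a-5p: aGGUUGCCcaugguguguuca
mmu-miR-410-5p: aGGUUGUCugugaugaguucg
mmu-miR-494-5p: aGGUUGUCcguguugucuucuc
mmu-miR-379-5p: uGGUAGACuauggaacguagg
mmu-miR-1193-5p: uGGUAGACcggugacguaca
mmu-miR-154-5p: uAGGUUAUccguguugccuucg
mmu-miR-377-3p: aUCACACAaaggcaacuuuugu
mmu-miR-409-3p: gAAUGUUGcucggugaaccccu
mmu-miR-410-3p: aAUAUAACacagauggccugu

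The promoters of Meg3 are printed because Meg3 is the start of the maternal transcripts. RefSeq gave 6 promoters for 5 member genes, each 300 bases long. Both strands were searched for the T-box element AGGTGTGA, for the cyclic AMP response element TGACGTCA, and then for the TATA box, spelled TATAAA. Of 32851 promoters, 1.28% held AGGTGTGA, 1.79% TGACGTCA and 13.6% TATAAA. Capitals mark the matches. The upstream Meg3 promoter held TGACGTCA once, beginning at position -57 from the start, and TATAAA on each strand, overlapping in a single run.
Meg3 upstream promoter (GRCm38.p6, plus strand, chr12:109540746-109541045): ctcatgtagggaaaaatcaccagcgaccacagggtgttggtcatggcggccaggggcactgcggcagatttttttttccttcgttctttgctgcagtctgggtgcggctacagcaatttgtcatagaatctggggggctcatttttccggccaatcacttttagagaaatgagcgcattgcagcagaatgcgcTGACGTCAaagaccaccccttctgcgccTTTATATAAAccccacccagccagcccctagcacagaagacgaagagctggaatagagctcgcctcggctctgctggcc
The downstream Meg3 promoter held the T-box letters on the minus strand, beginning at position -99. None of the other 5 member promoters held AGGTGTGA. A match is only a description of the sequence.
Meg3 downstream promoter (GRCm38.p6, plus strand, chr12:109545148-109545447): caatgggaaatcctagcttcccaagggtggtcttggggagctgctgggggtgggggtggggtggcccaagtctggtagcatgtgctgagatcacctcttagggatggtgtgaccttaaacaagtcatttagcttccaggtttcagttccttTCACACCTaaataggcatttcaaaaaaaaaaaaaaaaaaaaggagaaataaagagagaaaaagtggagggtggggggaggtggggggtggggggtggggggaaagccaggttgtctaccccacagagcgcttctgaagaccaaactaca

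Signals are given as log2 values after variance stabilizing normalization (VSN), and a difference is Tbx5-/+ minus wild-type in log2. Testing required a spot well above background on the 4 arrays of either genotype, and 20031 probes met this, all 9 of the cluster included. Between 45.0% and 52.8% of the spots were well above background on the Tbx5-/+ arrays and between 50.9% and 63.6% on the wild-type arrays, and the median difference over all probes tested was -0.19. The probe Tbx5 A_52_P523712 read between 8.62 and 9.73 in Tbx5-/+ and between 10.42 and 11.55 in wild-type, while Tbx5 A_51_P469338 differed by -0.15 between overlapping groups. The sources used here do not place either probe against the mutated part of Tbx5. All 10 pSHF mesenchyme markers examined (Tbx5, Foxf1, Isl1, Osr1 and others) had a tested probe. In this bulk tissue, fewer cells that express a gene and less of its RNA per cell cannot be told apart.

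The maternally expressed Mirg, host of several of the microRNAs above, had the largest difference of the cluster under VSN. With 75th percentile scaling, Meg3 A_52_P196568, a probe near background in Tbx5-/+, had a larger one (-2.55 against -1.90 for Mirg). The Mirg probe A_52_P277415 read 8.21, 8.27, 8.81 and 8.14 in Tbx5-/+ 1, 5, 6 and 7, and 9.75, 10.79, 10.03 and 10.92 in wild-type 1, 5, 6 and 7. The groups did not overlap, and a gap of 0.94 separated the highest Tbx5-/+ from the lowest wild-type array. The Tbx5-/+ mean of 8.36 ± 0.30 (SD, n = 4) lay below the wild-type mean of 10.37 ± 0.57 (SD, n = 4), a difference of -2.01 (SE 0.30), or 4.03-fold lower. Each Tbx5-/+ array was below the wild-type array of its own embryo number, by -1.53, -2.51, -1.23 and -2.77 for numbers 1, 5, 6 and 7. The groups also did not overlap once the array median was subtracted from every value, which left Mirg 1.83 below the median difference (-1.83).

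**Figure D1:**
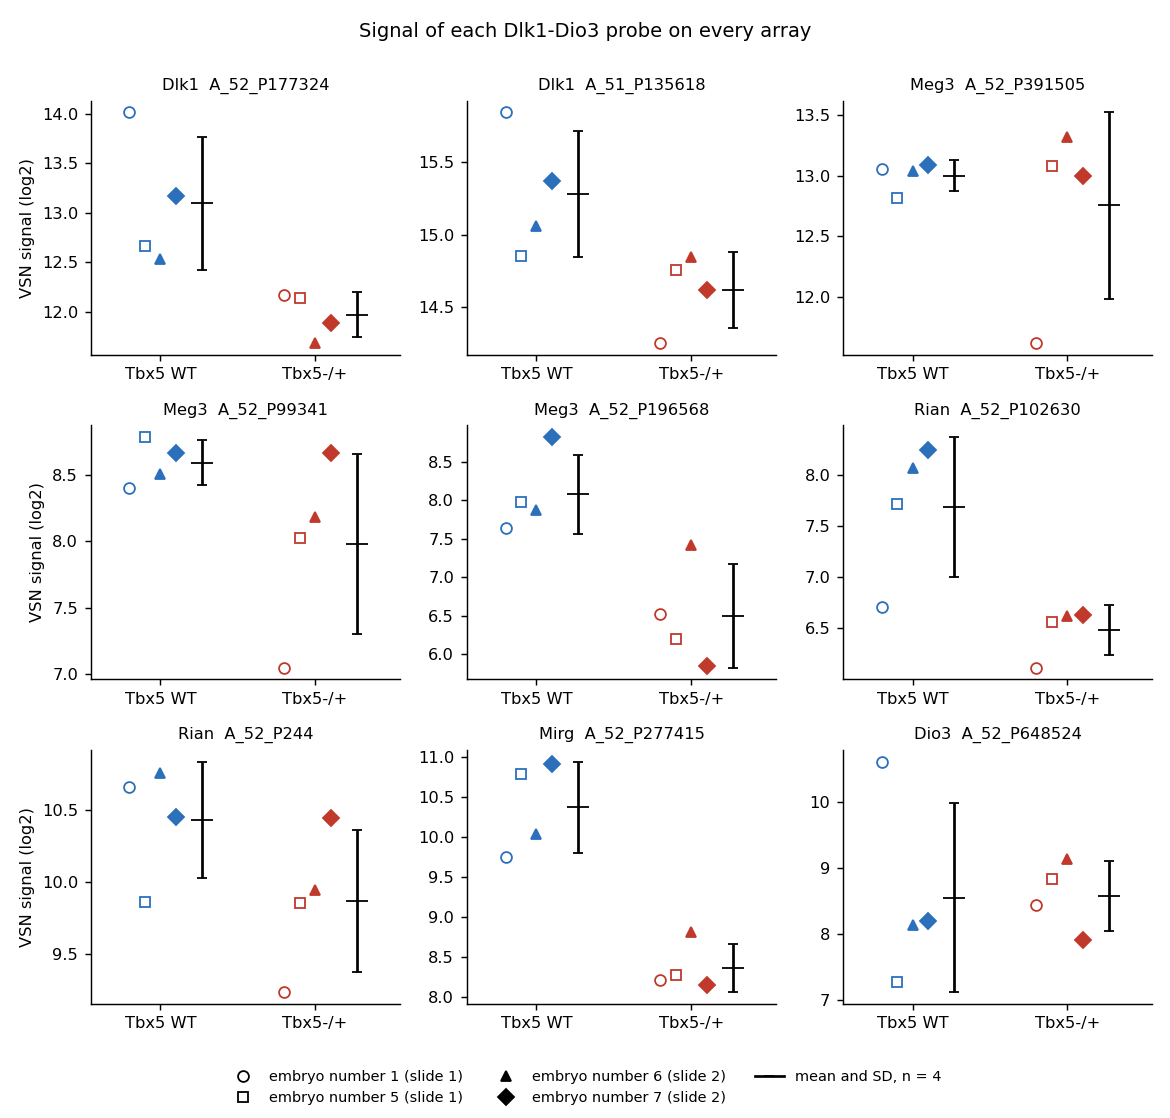
VSN signal (log2, vertical axes differ between panels) of the 9 cluster probes in the Tbx5 WT and Tbx5-/+ groups, with 1 symbol per array by embryo number (open on slide 1, filled on slide 2) and the mean and SD of 4 arrays beside them. The 4 Tbx5-/+ arrays lie below the 4 wild-type arrays for Mirg, 2 Dlk1 probes, Meg3 A_52_P196568 and Rian A_52_P102630, and wild-type 1 stands at 10.61 for Dio3.

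Meg3, the noncoding RNA at the head of the maternal transcripts, was read by 3 probes that gave unequal differences. The intron-spanning A_52_P391505 read 11.62, 13.08, 13.32 and 13.00 in Tbx5-/+ 1, 5, 6 and 7, and 13.06, 12.82, 13.04 and 13.09 in wild-type. Tbx5-/+ 1 was low and the other 3 Tbx5-/+ arrays lay among or above the wild-type arrays. The difference was -0.25 (SE 0.34), and it turned to 0.13 without Tbx5-/+ 1, 0.12 with 75th percentile scaling and 0.07 with arrays centred.

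The second Meg3 probe, A_52_P99341, lies 3' of that intron and read 7.05, 8.03, 8.18 and 8.66 in Tbx5-/+ and 8.40, 8.78, 8.50 and 8.67 in wild-type. Again Tbx5-/+ 1 was the lowest, the groups overlapped through Tbx5-/+ 7, and the difference was -0.61 (SE 0.31), or -0.30 without Tbx5-/+ 1. A_52_P196568, further 3', read 6.52, 6.20, 7.41 and 5.85 in Tbx5-/+ and 7.63, 7.97, 7.87 and 8.82 in wild-type. Here the groups did not overlap, but they did once array medians were subtracted. The probe was well above background on all 4 wild-type arrays but on 0 of the 4 Tbx5-/+ arrays. With each Tbx5-/+ array set to the higher of this reading and its lowest signal well above background, the mean was 2.76-fold lower in Tbx5-/+. Only Tbx5-/+ 7 was raised this way, so the fold rests mostly on background readings and is no strict bound. Other scalings gave differences from -2.55 to -1.15. The measured means were 6.50 ± 0.67 (SD, n = 4) and 8.07 ± 0.52 (SD, n = 4).

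A pair of probes with other names lay 3' of these. AI850416 (A_51_P109649, chr12:110800898-110800957), which the file names separately, lies just 3' of A_52_P196568. It read 8.90, 8.99, 8.54 and 9.21 in Tbx5-/+ and 10.67, 10.80, 10.60 and 11.39 in wild-type. The groups did not overlap and the difference was -1.95 (SE 0.24). The probe ENSMUST00000021696 (A_51_P455997, chr12:110809678-110809737), the most 3' of them, differed by -0.23 (SE 0.38), close to the intron-spanning Meg3 probe, with Tbx5-/+ 1 at 12.69 and the other 7 arrays between 13.94 and 14.67. The measured differences were therefore unequal along this stretch, and that of A_52_P196568 rests on background readings in Tbx5-/+. Over all probes tested, 2539 that span an intron had a median difference of -0.30 and 17430 that match an unbroken stretch one of -0.17.

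Rian, which carries box C/D snoRNAs, was read by 2 probes. A_52_P102630 gave 6.12, 6.56, 6.62 and 6.63 in Tbx5-/+ and 6.71, 7.71, 8.07 and 8.24 in wild-type. The groups did not overlap, but wild-type 1 exceeded the highest Tbx5-/+ array by only 0.08, and the groups overlapped once array medians were subtracted. Only 2 of the 4 Tbx5-/+ arrays had a spot well above background. The difference was -1.20 (SE 0.32), or -1.52 without wild-type 1.

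Rian A_52_P244 (chr12:110898804-110898863) read 9.24, 9.85, 9.95 and 10.44 in Tbx5-/+ and 10.66, 9.86, 10.76 and 10.45 in wild-type. The groups overlapped, with Tbx5-/+ 1 the lowest of the 8 arrays, and the difference was -0.56 (SE 0.29). It was -0.35 without Tbx5-/+ 1 and -0.26 with 75th percentile scaling. Alternative fits ran from -0.83, with the share of spots well above background as covariate, to -0.10 with array weights. Within embryo numbers it was -1.42 for number 1, -0.81 for number 6 and near 0 for numbers 5 and 7 (-0.0051 and -0.010). The bases of this probe were 23.3% G or C, the lowest share of the 9. The 4270 tested probes with at most 35% G or C had a median difference of -0.09 and the 1296 with over 50% to 55% one of -0.38.

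Of the paternally expressed genes, Dlk1 was lower in Tbx5-/+ on both probes. A_52_P177324 read 12.17, 12.14, 11.69 and 11.89 in Tbx5-/+ and 14.01, 12.67, 12.54 and 13.17 in wild-type. The groups did not overlap, wild-type 1 was the highest array, and the difference was -1.12 (SE 0.32), or -0.82 without wild-type 1. A_51_P135618 (chr12:110698667-110698726) read 14.25, 14.75, 14.84 and 14.62 in Tbx5-/+ and 15.85, 14.85, 15.06 and 15.37 in wild-type. These groups were separated by only 0.01, they overlapped once array medians were subtracted, and the difference of -0.67 (SE 0.25) was -0.48 without wild-type 1. It was -0.30 with 75th percentile scaling, -0.35 with arrays centred and -0.82 with normexp and quantile normalization.

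Dio3, at the far end of the cluster, gave no direction. Its probe A_52_P648524 (chr12:111519117-111519176) read 8.43, 8.83, 9.13 and 7.91 in Tbx5-/+ and 10.61, 7.27, 8.13 and 8.19 in wild-type. Wild-type 1 stood above the other 7 arrays and wild-type 5 below them. The difference was 0.02 (SE 0.62), and leaving out 1 array moved it between -0.40 without wild-type 5 and 0.71 without wild-type 1. Its antisense neighbour Dio3os was well above background on 0 of 8 arrays.

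Wild-type 1, the array highest in Dlk1 and Dio3, was also the highest or lowest array in several, though not all, of the tissue marker lists. The summed level (log2) of the 10 foregut endoderm markers was 17.55 on wild-type 1, against 16.38 to 16.99 on the other 7 arrays. The summed level of the 7 tested liver bud markers (of 10, Afp among them) was 16.53 on wild-type 1 and 14.18 to 16.44 on the other wild-type arrays, and ranged from 12.85 (Tbx5-/+ 1) to 17.00 (Tbx5-/+ 6) in Tbx5-/+. Wild-type 1 was thus not the highest of the 8 arrays for liver bud. Its neural tube markers (7 tested of 12) summed to 12.70 and its somite markers to 12.25, both the lowest of the 8 arrays. Its pSHF mesenchyme markers summed to 16.04, the highest. Dlk1 is also known as a marker of early liver cells. The part of these tissues in the Dlk1 and Dio3 values was not tested.

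Tbx5-/+ 1, low in Meg3 A_52_P391505 and Rian A_52_P244, had the lowest summed level of the 10 pSHF mesenchyme markers, 14.25 against 15.13 to 16.04 on the other 7 arrays. For pSHF mesenchyme as a whole, 7 markers were lower in Tbx5-/+, Tbx5 among them, and 3 higher (median -0.86, or -0.68 relative to the median of all probes). All 7 liver bud markers tested were lower (median -0.92, or -0.73 relative to the median of all probes). Of 10 endothelial markers 7 were lower (median -0.65, but -0.37 with 75th percentile scaling and -0.33 with arrays centred). For foregut endoderm 8 of 10 were lower (median -0.43, but -0.12 and -0.11 with the same 2 scalings). Of all probes tested, 65.0% were lower. The summed cardiomyocyte level was 18.23 to 19.40 in Tbx5-/+ and 18.52 to 19.13 in wild-type, that of primitive erythrocytes 16.45 to 19.05 and 16.53 to 18.43, that of endothelium 14.34 to 14.68 and 14.69 to 14.98, and that of somite 12.55 to 14.15 and 12.25 to 14.34. Of these lists only endothelium had summed levels that did not overlap between the genotypes, and only narrowly (14.68 against 14.69). Array medians, all lower on the Tbx5-/+ arrays, were not subtracted from these sums. The part of these cell types in the cluster's values was not tested.

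With limma fitted without pairing, 0 of 20031 probes passed an adjusted p of 0.05 (4347 at an unadjusted p under 0.05), so 0 of the 9 cluster probes were called against 0% of all probes. With the replicate block, which compares arrays within each embryo number, 4 cluster probes were called, all lower in Tbx5-/+, where 10.7% of all probes were called and 10.3% were called lower. Array weights called 5 cluster probes, all lower, against 49.5% of all probes (32.9% lower). Leaving out Tbx5-/+ 1 called 3, all lower, against 19.3% (12.1% lower), and leaving out wild-type 1 called 2, both lower, against 1.04%. All 4 Tbx5-/+ arrays lay below all 4 wild-type arrays for 5 of the 9 cluster probes, a pattern shown by 8.81% of the 20021 probes measured on all 8. Array medians were 9.48 to 9.83 in Tbx5-/+ and 9.89 to 10.06 in wild-type. Once they were subtracted, the pattern held for 2 of the 9, Mirg and Dlk1 A_52_P177324. The share of all probes with it after subtraction was not computed. The opposite pattern occurred for 0 cluster probes and for 0.759% of all probes. A difference below 0 was found for 8 of the 9 (Meg3 A_52_P391505 among them only under some scalings), where 65.0% of all probes had one, and a difference below -1 for 4 of the 9, where 7.94% did. Meg3 A_52_P196568 and Rian A_52_P102630 passed the filter only through the wild-type arrays. Since the genes were picked from this contrast, these counts describe the members and are no evidence of enrichment.

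**Figure D2:**
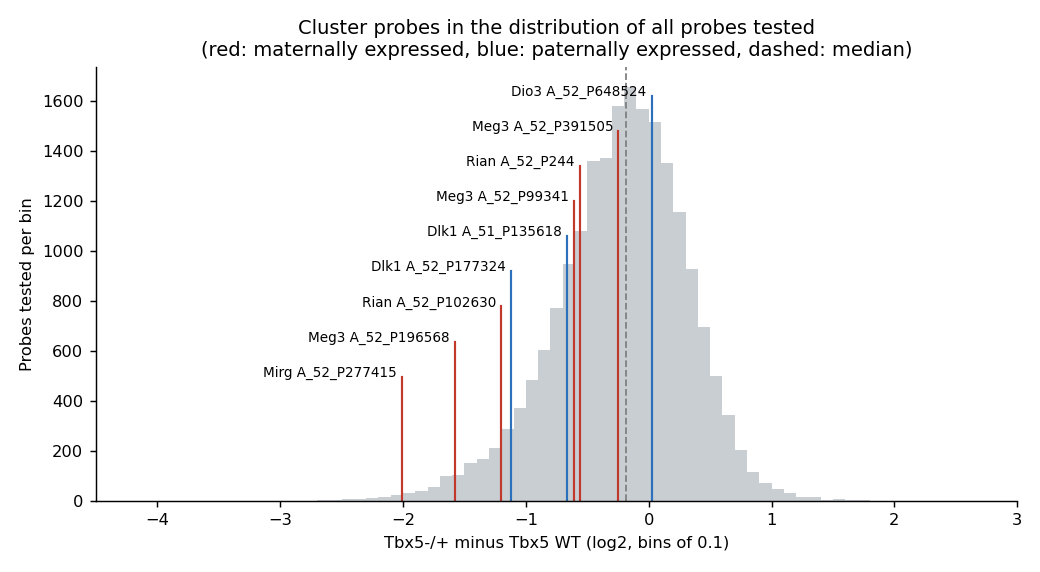
Number of tested probes (vertical axis) by their difference, Tbx5-/+ minus Tbx5 WT (horizontal axis, log2, bins of 0.1), with a line at each cluster probe, red for maternally and blue for paternally expressed genes (line heights only separate the names). Differences run from -2.01 for Mirg to 0.02 for Dio3, around a median of all probes of -0.19 (dashed).

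Along the chromosome, the cluster probes covered 820.7 kb from Dlk1 to Dio3. Between them lay 8 probes with other names, of which 3 were tested. Beside AI850416 and ENSMUST00000021696, this was NAP070880-1 (A_52_P278837), between Mirg and Dio3, at 0.53 (SE 0.29) with overlapping groups. AK049674, B830012L14Rik and 4930511J24Rik were well above background on no array, like Dio3os, and AK086774 on 1 Tbx5-/+ and 3 wild-type arrays.

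Outside the cluster, 12 of 16 probes were tested within 1 Mb on the Dlk1 side, with a median difference of -0.49 (10 lower, 2 higher), which was -0.22 with 75th percentile scaling and -0.17 with arrays centred. On the Dio3 side 26 of 42 were tested, with a median of -0.18 (15 lower, 11 higher) that turned to 0.13 with 75th percentile scaling and with arrays centred. The listed flanking genes, 16 of 20 of them tested, had a median of -0.36 (-0.02 with 75th percentile scaling and -0.04 with arrays centred) and ranged from -1.22 (Cdc42bpb, a kinase acting on the cytoskeleton) to 0.46 (Hsp90aa1, a chaperone). On the brightest probe of each gene, the groups did not overlap for Cdc42bpb and Traf3 (-0.52, a signalling adaptor), 2 of 16, where 8.81% of all probes had every Tbx5-/+ array below. Other probes without overlap within 1 Mb, chosen here after their values were seen, were Yy1 A_52_P325819 (-0.77), Rcor1 A_52_P535052 (-0.86), AI132487 (-0.77), NAP032887-1 (-1.51) and 1700001K19Rik (0.45). Yy1, a zinc finger regulator upstream of Dlk1, had 3 probes between -0.77 and -0.24, with overlapping groups on the brightest. Evl (-0.32), Slc25a29 (-0.44), Wars (-0.53), Wdr25 (0.02), Ppp2r5c (-0.17), Dync1h1 (-0.37), Wdr20a (0.31), Mok (-0.20), Cinp (-0.34), Tecpr2 (-0.34), Ankrd9 (-0.56) and Rcor1 (-0.40) had overlapping groups on their brightest probe. Degs2, Zfp839 and Amn did not pass the filter, and Begain had no probe under that name.

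**Figure D3:**
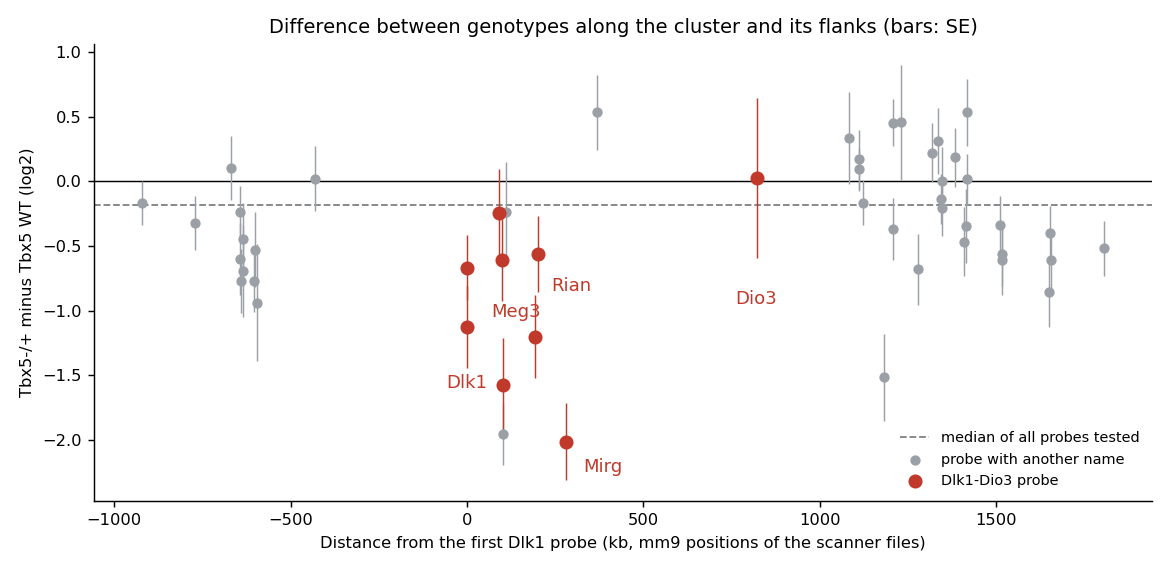
Difference between genotypes (log2, bars are the SE) of every tested probe against its distance in kb from the first Dlk1 probe, with cluster probes in red, other probes in grey and the median of all probes dashed. The cluster runs from -2.01 at Mirg and -1.95 at the grey AI850416 probe just 3' of the Meg3 probes to 0.02 at Dio3.

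The slide, which the choice of genes did not use, was tested with genotype in the limma model. It passed an adjusted p of 0.05 for 0 of the 9 cluster probes and 0% of all probes, also with array weights (1.08% of all probes) and without Tbx5-/+ 1 (0.00499%). At an unadjusted p under 0.05 the slide term reached 1 of 9 (14.4% of all probes), Rian A_52_P102630, which was higher on slide 2 by 0.62 (SE 0.27, limma adjusted p 0.342). The other 8 slide differences ran from -0.44 (Dio3) to 0.50 (Rian A_52_P244). The genotype by slide interaction was called for 0 cluster probes and 0% of all probes, and at an unadjusted p under 0.05 for 0 cluster probes and 1.29% of all. The largest interaction was that of Meg3 A_52_P99341, with a difference of -1.06 on slide 1 and -0.16 on slide 2 (interaction 0.89, SE 0.53, limma adjusted p 0.946). With the replicate block, an alternative chosen after the data were seen, 0 cluster probes and 0% of all probes were called for the interaction, and 1 of 9 (Meg3 A_52_P99341, limma adjusted p 0.657) against 6.46% of all probes had an unadjusted p under 0.05. For Mirg the slides gave -2.02 and -2.00 (interaction 0.02, SE 0.63).

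Within genotypes, pairs of cluster probes ranged from opposite to like variation. After array medians and genotype means were subtracted, Pearson's r over the 8 arrays was 0.83 between Meg3 A_52_P391505 and A_52_P99341 and 0.73 between A_52_P391505 and Rian A_52_P244. For Mirg, r was 0.84 with Meg3 A_52_P196568, 0.68 with Rian A_52_P102630 and 0.29 with Meg3 A_52_P391505, but the first of these was well above background on 0 and the second on 2 of the 4 Tbx5-/+ arrays, so those values rest partly on background readings. Dio3 followed both Dlk1 probes (0.84 and 0.85). The lowest value was -0.80, between Dlk1 A_52_P177324 and Rian A_52_P102630. These values are descriptions over 8 arrays that share 2 slides, and Tbx5-/+ 1 and wild-type 1 are the arrays farthest from their group means in several of the probes.

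**Figure D4:**
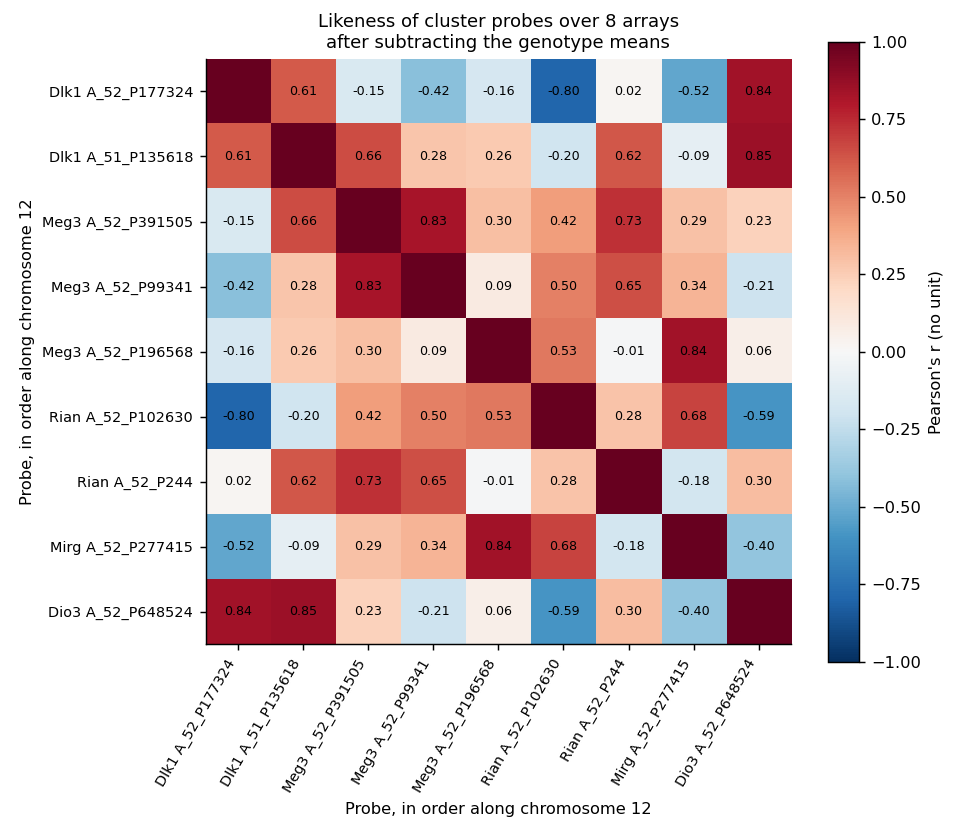
Pearson's r (colour and number) between every pair of the 9 cluster probes over 8 arrays after subtracting array medians and genotype means, in order along chromosome 12. Meg3 A_52_P391505 and A_52_P99341 (0.83), Mirg and Meg3 A_52_P196568 (0.84), and Dlk1 and Dio3 (0.84 and 0.85) are the closest pairs.

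Probes under other gene names with the most similar pattern were sought for the brightest tested probe of each gene, as Pearson's r over all 8 arrays after subtracting array medians. Genotype means were not subtracted here, so the difference between genotypes enters these r. For Mirg they were TC1679849 (0.97), Taok1 (0.97) and Cep95 (0.96), all lower in Tbx5-/+ (-1.49, -1.13 and -0.80), and 62 probes exceeded 0.9. For Meg3 A_52_P391505 they were Akr1b8 (0.99), ENSMUST00000021696 (0.99) and Ackr3 (0.98), and 144 probes exceeded 0.9. Of these, ENSMUST00000021696 lies inside the cluster, and the scanner files list that transcript for the Meg3 probe as well. For Rian A_52_P244 they were Pla2r1 (0.97), TC1628698 (0.96) and Tek (0.94). For Dlk1 A_51_P135618 they were Naaa (0.95), Smim1 (0.94) and Oit3 (0.93), and for Dio3 Rhox5 (0.97), Mtarc1 (0.96) and Dusp9 (0.96). These are the closest of 20031 probes over 8 arrays, given as a description.

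Genes that act on the cluster's products or its imprint were grouped in lists, in each of which limma called 0 members (of 0% of all probes), and medians are read against the -0.19 of all probes tested. Of the 10 microRNA processing genes, 8 were lower and 2 higher (median -0.35, or -0.16 relative to the median of all probes). The lowest were Dicer1, which cuts hairpins to mature microRNAs (-0.94), and Xpo5, which exports them (-0.56). Of the 7 box C/D snoRNA proteins, 6 were higher and 1 lower (median 0.22), with Snu13 at 0.44 and Nop56 at 0.42. That median was 0.41 relative to the median of all probes, and 0.13 with the mean of each gene's tested probes. For DNA methylation and imprint maintenance, 10 of 13 tested genes were lower (median -0.53, or -0.34 relative to the median of all probes). Zfp445, a zinc finger protein that protects imprints, differed by -1.17 and the demethylase Tet2 by -1.13.

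Further lists cover the pathways of the coding members. Of 6 tested genes that handle thyroid hormone, the substrate of Dio3, 4 were lower (median -0.11, but 0.13 with 75th percentile scaling and 0.21 with arrays centred), with the receptor Thra at -1.54 and the corepressor Ncor1 at -1.42. Of 14 Notch receptors, ligands and targets, related to Dlk1, 10 were higher and 4 lower (median 0.15), with Notch1 at -0.85 and Dll1 at 0.66. That median was 0.33 relative to the median of all probes, and 0.03 with the mean of each gene's tested probes. The 3 tested relatives of Rtl1 lay between -0.73 (Rtl6) and 0.20 (Rtl5). Among 10 long noncoding RNAs outside the cluster, 6 were lower (median -0.23, but between 0.07 and 0.09 with 75th percentile scaling, quantile normalization and arrays centred). They ranged from Malat1, a nuclear RNA, at -1.84 with no overlap of the groups, to the snoRNA host Gas5 at 1.16.

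The scaling between arrays set the size of the smaller differences. The median over all probes tested was -0.19 under VSN and 0.10, -0.01, 0.13 and -0.21 with the 75th percentile, normexp with quantile normalization, VSN with arrays centred, and the deposited values. Measured against that median, 7 of the 9 cluster probes were below it under all 5 scalings, Dio3 above it under all 5, and Meg3 A_52_P391505 was above it with the 75th percentile (0.02). On this measure VSN, VSN with arrays centred and the deposited values are nearly the same (Mirg -1.83, -1.83 and -1.82). They are therefore not separate checks. The Mirg difference stayed between -2.03 and -1.59. Dlk1 A_52_P177324 ranged from -1.15 to -0.76 and Rian A_52_P102630 from -1.77 to -0.88.

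**Figure D5:**
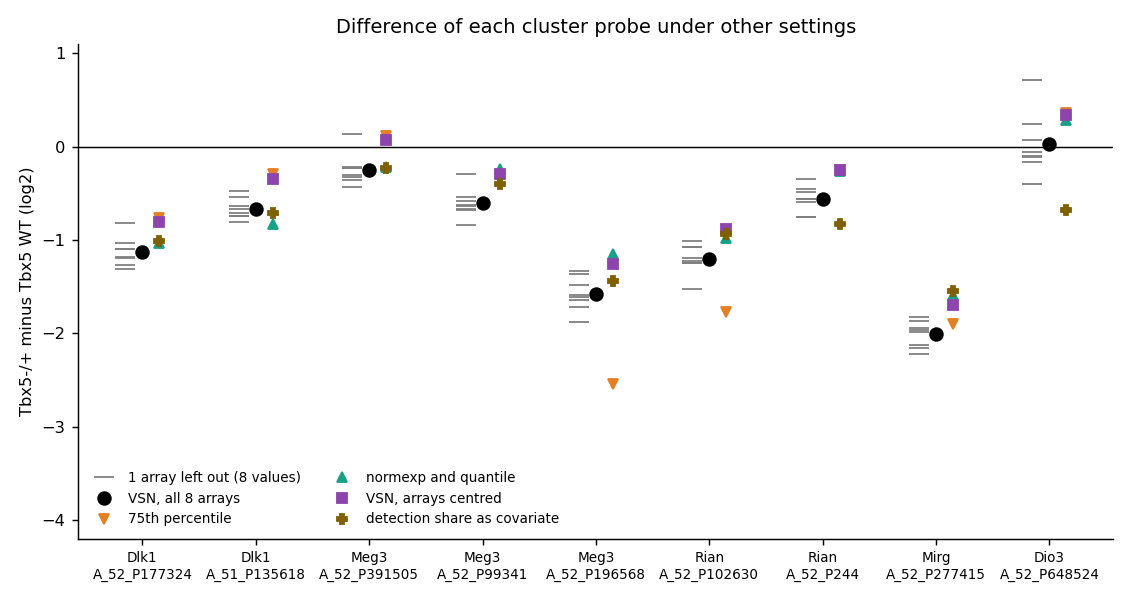
Difference between genotypes (log2) of each cluster probe with VSN on 8 arrays (black), with 1 array left out (grey dashes, 8 values) and under 4 other settings (coloured symbols). Mirg stays between -2.22 and -1.55 in the settings drawn, while Meg3 A_52_P391505 and Dio3 take both signs.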

How the data were processed

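RNA of E9.5 pSHF was measured on 8 one-colour arrays, 4 Tbx5-/+ and 4 wild-type, grouped by their titles. Per the file headers, intensity values come from Agilent Feature Extraction 10.5.1.1 (mean signal, local background and a processed signal on a linear scale) and other columns with quality marks that the software deposited beside them, such as whether a spot is well above background. The authors also deposited a table of log2 values, which they background-corrected and normalized by VSN.

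From the mean signal the local background (its median) was taken off, 1115 outlier spots over the 8 arrays were left out of 43379 non-control spots on each, and values of 245 repeated probes were averaged. Saturation affected 0 spots. VSN was programmed in R 4.3.3 (90% of probes kept in each of 7 iterations). Its values correlated with the deposited values with r of at least 0.9999 on every array. Probes were fitted with limma 3.58.1 (lmFit, eBayes, two-sided, Benjamini-Hochberg over all probes tested), which was tested on simulated data. The methods name SAM, which was not run. The number of arrays limits the precision, and the p-values measure the spread between these pools.

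Embryo numbers are shared between the genotypes in the titles. Deviations of same-numbered arrays from their group means correlated by 0.44, 0.40, 0.59 and 0.14 for numbers 1, 5, 6 and 7, so the numbers were taken to pair the arrays, although the sources do not say what they share. The main limma fits and the SE printed beside each difference did not use this pairing. It entered only through the replicate block. Tbx5-/+ 7 correlated more with a wild-type array of another number (0.37).

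The members and lists were chosen with earlier results of these data known. Named genes are every cluster probe, the flanking list, probes between the outermost members, the 3 non-member genes closest in pattern to the brightest probe of each member and at most 2 genes of each other list with the largest differences. The brightest tested probe stood for each listed gene, and older symbols were updated through RefSeq. For tissue lists, levels of the tested markers were summed on the linear scale. The fold of a dim probe uses, for each array of the dim group, the higher of its lowest signal well above background and the probe's own signal. Where the probe's own signal is the higher, that fold is no strict bound. Alternatives covered scaling, filters, array weights, slide, pairing, detection share and leaving out each array.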

Additional observations from a re-analysis of the deposited data

Results flagged for a closer look

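In each group of 4 arrays, the gap between the most extreme array and the next was compared with the group's range. Of 18 groups (9 cluster probes in 2 genotypes), 1 exceeded the 95% critical value of Dixon's test. This was Rian A_52_P102630 in Tbx5-/+, where array 1 read 6.12 and the other 3 arrays 6.56 to 6.63, a gap of 0.861 of the range. Chance flags about 1 in 20 groups. The probe was well above background on 2 of these 4 arrays, and its difference between genotypes was -1.08 without Tbx5-/+ 1.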

How the results depend on the processing

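The number of cluster probes called by limma was 0 with VSN on 8 arrays, 5 with array weights, 4 with the replicate block, and from 0 to 3 with 1 array left out (3 without Tbx5-/+ 1, 2 without wild-type 1). Over all probes the counts were 0, 9917 (49.5%), 2138 (10.7%), and from 0 to 3857 with 1 array left out (3857, 19.3%, without Tbx5-/+ 1 and 208, 1.04%, without wild-type 1). All other settings called 0. The pairing by embryo number cannot change a difference, since each number has 1 array of each genotype, and it called 0 interactions. The slide term could not be fitted with the pairing, since each number lies on 1 slide. The Mirg difference was -2.52 with array weights, -1.55 with the detection share as covariate, and -1.53, -2.51, -1.23 and -2.77 within embryo numbers 1, 5, 6 and 7. Leaving out 1 array kept it between -2.22 and -1.83. The median difference over the 9 cluster probes was -0.67, -0.33 with 75th percentile scaling and -1.43 within embryo number 1. Meg3 A_52_P391505 changed sign with 75th percentile scaling (0.12), with arrays centred (0.07) and without Tbx5-/+ 1 (0.13), and Dio3 was -0.68 with the detection share as covariate. Meg3 A_52_P196568 was -2.55 with 75th percentile scaling and -2.42 with array weights, but -1.15 with normexp and quantile normalization and -1.26 with arrays centred. The cause of these changes was not tested. Without the filter the flanking medians moved to -0.28 (Dlk1 side) and -0.03 (Dio3 side), by the dim probes added. Signal near background limits Meg3 A_52_P196568 and Rian A_52_P102630.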
